A study of Mus musculus with 16 samples.

Results

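The genes described are Cps1, Otc and Got1, read in the livers of mice fed the coffee diterpenes cafestol and kahweol. They were chosen by name, as the array's probes whose single annotated gene symbol is one of these 3, out of 6734 named genes. Each was represented by 1 cDNA probe with a value on all 16 arrays: Cps1 (Entrez Gene 227231) by probe 5714, Otc (18416) by probe 6799 and Got1 (14718) by probe 3179. Carbamoyl-phosphate synthetase (Cps1) and ornithine transcarbamylase (Otc) catalyse the opening steps of urea synthesis, from ammonia to citrulline, and both work in the mitochondrial matrix of hepatocytes. Got1 is the cytosolic aspartate aminotransferase, which interconverts aspartate and oxaloacetate and so takes part in the malate-aspartate shuttle; aspartate is the carrier of the second nitrogen of urea. In the liver lobule, urea synthesis is a periportal function, and the genes of the cycle are classically known to respond to glucocorticoids and cyclic AMP.

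All animals were female APOE3Leiden mice, which carry a human apolipoprotein E variant on a C57BL/6-derived background and in which plasma lipids respond to diet. They were 10 weeks old at the start and ate for 4 weeks a Western-type diet with fat at 15 g and cholesterol at 0.25 g per 100 g. In the treated group of 8 mice the diet held 0.04% cafestol and 0.02% kahweol by weight, and the control group of 7 mice ate it unsupplemented. Each treated liver was hybridised to 2 arrays of 1 platform (GEM 2.03), labelled with Cy5 against control-diet liver RNA in Cy3, and 0 arrays had swapped dyes. The transgene and the Western-type diet are common to both groups, so the arrays hold no comparison with wild-type mice or chow. Poly(A) RNA came from whole liver, in which fewer cells of a type and less RNA per cell cannot be told apart.

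The identifiers of the treated mice fall into 2 series, SY (SY521RL, SY518Z, SY524ROB+L and SY522ROB) and TP (TP4215, TP4168, TP4205 and TP4163). The labels do not say what SY and TP stand for, nor whether both series were set against the same control RNA. The array titles also carry a code, c3z on 7 of the 8 SY arrays and bl7 on all 8 TP arrays. Only SY518Z was run on 1 array of each code, and apart from that mouse array code and identifier series cannot be told apart. The deposited values are log2 ratios of the 2 channels whose direction the sources used here do not state, so every sign below is the deposited one and would turn with it. On that scale Cyp7a1, which starts the classical route of bile acid synthesis, lay at 1.56 ± 0.38 and the glutathione S-transferase Gstm1 at -2.48 ± 0.23 (SD, n = 8 mice). A test of a ratio against 0 takes in the spread among the treated mice and leaves out that among the controls. Since dyes were not swapped on any array, diet and a dye effect of a probe cannot be told apart in such a test.

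The 3 genes did not share a pattern. Otc had a small positive ratio in all 8 mice, 0.23 ± 0.08 on the log2 scale (SD, n = 8) or 1.17-fold, with no detected difference between SY and TP mice. Cps1 and Got1 had ratios near 0 in the 4 SY mice, -0.10 ± 0.07 and -0.13 ± 0.23 (SD, n = 4), and positive ratios in the 4 TP mice, 0.70 ± 0.24 and 0.74 ± 0.26. For Cps1 the TP mean was 1.62-fold and for Got1 1.67-fold. Averaged over the 8 mice, neither Cps1 nor Got1 passed the test against 0, whereas both passed the test between SY and TP mice.

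Upstream sequence of Otc and Got1 is shown for reference. It comes from a reference assembly and not from the SY or TP mice, and its relation to the values was not tested. A window of 250 bases before the annotated start was available for 2 of the 3 genes, Otc and Got1 (RefSeq, assembly GRCm38.p6), not for Cps1. Sequences are written 5′ to 3′ on the gene's own strand, with searched motifs in capitals. The Otc window is chrX:10252055-10252304 on the plus strand, and the Got1 window is chr19:43524606-43524855 on the minus strand.
Otc: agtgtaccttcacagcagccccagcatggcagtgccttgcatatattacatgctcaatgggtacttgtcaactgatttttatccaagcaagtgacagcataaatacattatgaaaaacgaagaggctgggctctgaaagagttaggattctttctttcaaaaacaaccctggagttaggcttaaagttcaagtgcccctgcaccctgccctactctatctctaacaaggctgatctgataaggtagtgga
Got1: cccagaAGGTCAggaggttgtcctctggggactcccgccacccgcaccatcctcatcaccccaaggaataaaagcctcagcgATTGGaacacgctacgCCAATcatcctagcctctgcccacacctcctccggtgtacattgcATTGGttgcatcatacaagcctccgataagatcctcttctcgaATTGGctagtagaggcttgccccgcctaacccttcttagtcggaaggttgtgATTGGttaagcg

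The Got1 window held 5 matches of CCAAT, the letters bound by the factor NF-Y. One read CCAAT on the printed strand and 4 read ATTGG, its reverse complement, and they began 168, 152, 107, 64 and 12 bases before the start. It also held 1 match of TGACCT, a hormone receptor element's core, as AGGTCA on the printed strand 244 bases before the start. The Otc window held 0 matches, on either strand, of CCAAT, of the TATA box TATAAA or of TGACG (from cyclic AMP response elements), and 0 of TTGCAA (from C/EBP sites), of TGTTCT (from glucocorticoid response elements) or of TGACCT. Its GC content was 43.6%, against 54.4% in the Got1 window. Of 32851 mouse windows of the same length, 33.8% held CCAAT, 12.4% TATAAA, 17.8% TGACG, 5.34% TTGCAA, 16.1% TGTTCT and 14% TGACCT; none of these motifs overlaps another in the printed windows. A match only describes the letters, and the arrays hold no measurement of binding.

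Cps1, the first enzyme of urea synthesis, was read at -0.14 on both arrays of SY521RL, SY518Z and SY522ROB and at 0 on both arrays of SY524ROB+L. In TP4215 the 2 arrays gave 0.77 and 0.85. Both arrays gave 0.68 in TP4168, 0.93 in TP4205 and 0.38 in TP4163. Every TP mouse therefore stood above every SY mouse, and the lowest TP mouse lay 0.38 above 0. The 2 arrays of a mouse gave the same value in 7 of 8 mice and differed by at most 0.08. These values are ratios that were kept to 1 decimal before the logarithm was taken, so -0.14 is 1 step from 0, and the SY mice lay at 0 or 1 step from it.

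The mean Cps1 ratio over all 8 mice was 0.30 ± 0.46 (SD) and did not pass limma's test against 0 (adjusted p = 0.0751), with 4 mice positive, 3 negative and 1 at 0. An exact two-sided sign-flip permutation test over the 8 mice gave p = 0.141. Among all 8348 genes and unnamed probes tested, 43.4% passed that test. The SY minus TP difference was -0.80 (95% confidence interval -1.01 to -0.59), a ratio 1.74-fold lower in SY mice, with a limma adjusted p of 0.00413. The exact permutation test of the 4 SY against the 4 TP mice gave p = 0.0286, the smallest that 4 against 4 can give. By the size of this difference Cps1 ranked 7 of 8348.

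Got1, the cytosolic aspartate aminotransferase, was read at -0.14 on both arrays of SY521RL and at -0.26 on both arrays of SY524ROB+L. SY518Z gave -0.38 and -0.26, and SY522ROB gave 0.14 and 0.26. The TP mice gave 0.77 and 0.68 in TP4215, 0.85 on both arrays of TP4168, 1.0 on both arrays of TP4205 and 0.38 on both arrays of TP4163. The series did not overlap, and SY522ROB was the only SY mouse with positive values. The order of the TP mice was not the same as for Cps1, since TP4168 stood above TP4215 in Got1 and below it in Cps1. TP4205 was highest and TP4163 lowest in both genes. Arrays of the same mouse gave equal values in 5 of 8 mice and differed by at most 0.13.

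The mean Got1 ratio over 8 mice was 0.30 ± 0.52 (SD), which did not pass against 0 (limma adjusted p = 0.104; exact sign-flip permutation p = 0.156). The SY minus TP difference was -0.87 (95% confidence interval -1.16 to -0.58), 1.82-fold lower in SY mice, with a limma adjusted p of 0.00892 and an exact permutation p of 0.0286. Got1 ranked 5 of 8348 by the size of this difference. Over all genes and unnamed probes, 5.70% passed the test between SY and TP mice, 4.41% with SY lower and 1.29% with SY higher. Both Cps1 and Got1 are in the share with SY lower. Of 8059 genes and probes with values in all 8 mice, 5.99% had every SY mouse below every TP mouse and 3.40% every SY mouse above.

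**Figure D1:**
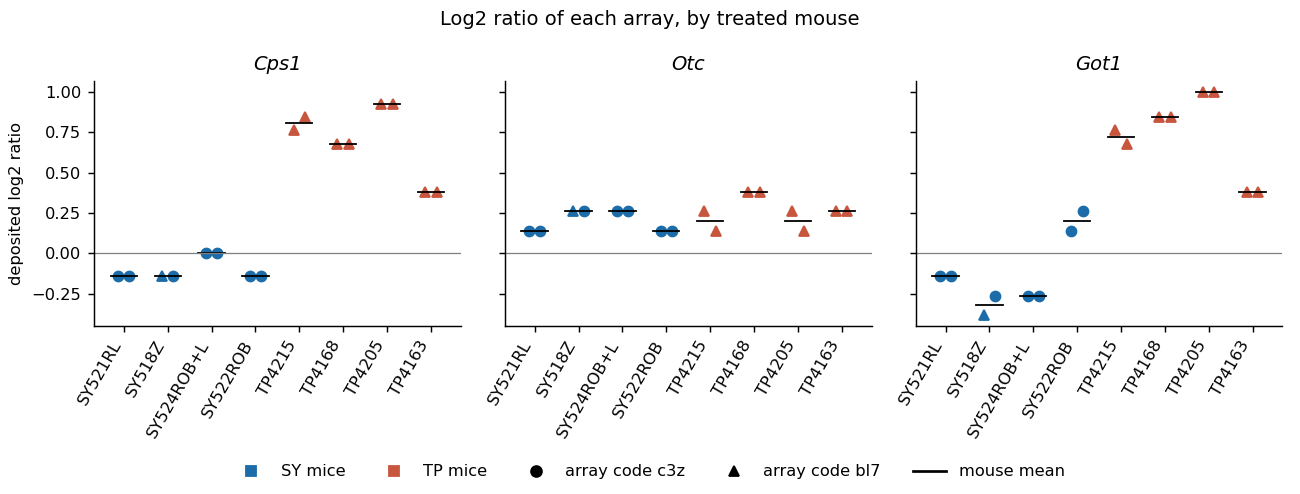
Log2 ratio as deposited (vertical axis) of Cps1, Otc and Got1 on each array, by mouse; points are single arrays, shaped by array code, and lines the mouse means. Cps1 and Got1 lie between -0.38 and 0.26 in SY mice and between 0.38 and 1.0 in TP mice, while Otc lies between 0.14 and 0.38 in all.

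Otc, the enzyme that joins carbamoyl phosphate to ornithine, was read at 0.14 on both arrays of SY521RL and SY522ROB, and at 0.26 on both arrays of SY518Z and SY524ROB+L. In the TP series both arrays gave 0.38 in TP4168 and 0.26 in TP4163, and the arrays of TP4215 and TP4205 each gave 0.26 and 0.14. All 16 values were thus positive and lay 1 to 3 steps of the ratio scale from 0, and the series overlapped. The ratio passed the test against 0 (limma adjusted p = 0.000168; exact sign-flip permutation p = 0.00781, the smallest that 8 mice can give), as did 18.0% of all genes and probes in the positive direction and 25.4% in the negative. SY mice averaged 0.20 ± 0.07 and TP mice 0.26 ± 0.08 (SD, n = 4). The SY minus TP difference of -0.06 had a 95% interval of -0.19 to 0.07, which excludes the sizes seen for Cps1 and Got1 (limma adjusted p = 0.559, exact permutation p = 0.457). Otc ranked 5448 of 8348 by that difference.

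**Figure D2:**
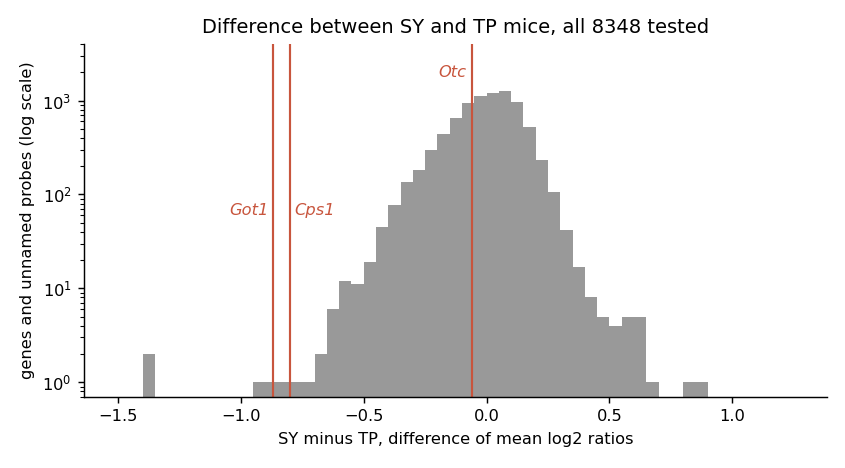
Distribution of the SY minus TP difference in log2 ratio (horizontal axis) over the 8348 genes and unnamed probes tested, with the 3 genes marked. Cps1 at -0.80 and Got1 at -0.87 lie in the far negative tail, and Otc at -0.06 lies near the middle.

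The contrast between Otc and the other two genes was also read within each mouse, where both values come from the same arrays. Cps1 lay below Otc in the 4 SY mice, by -0.40 to -0.26, and above it in the 4 TP mice, by 0.12 to 0.73. The mean difference Cps1 minus Otc was -0.30 in SY and 0.44 in TP mice, a change of -0.74 between the series (exact permutation p = 0.0286, adjusted p = 0.0429 over 3 pairs of genes). Otc minus Got1 was 0.33 in SY and -0.48 in TP mice, a change of 0.81 with the same p-values. Cps1 minus Got1 was 0.03 ± 0.27 in SY and -0.04 ± 0.11 in TP mice (SD, n = 4), and no change between the series was detected (exact permutation p = 0.657). The pair test was chosen after the values had been seen, and its exact permutation p of 0.0286 is the smallest possible here. It reuses the values of the single-gene tests and adds no independent support to them.

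SY518Z, the mouse run under both array codes, gave the same Cps1 ratio, -0.14, on its bl7 and its c3z array. On its bl7 array Got1 was -0.38 and Otc 0.26. The TP mice, on arrays of that same code, ranged from 0.38 to 0.93 for Cps1, from 0.38 to 1.0 for Got1 and from 0.14 to 0.38 for Otc. With array code as a term and the mouse as a random block, the SY minus TP difference was -0.81 for Cps1, -1.03 for Got1 and -0.04 for Otc. Only SY518Z separates array code from identifier series in that fit, so no p-values are given for it. Within the bl7 arrays alone the difference was -0.83 for Cps1 and -1.12 for Got1, as large as over all arrays, but it rests on 1 SY mouse and did not pass (limma adjusted p = 0.401 and 0.353).

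The rest of the urea cycle could be read only in part, since 2 of 8 listed genes (Cps1 and Otc) were measured. Of 8 genes listed for aspartate supply and the malate-aspartate shuttle, 5 were measured, and their median ratio was 0.28, against -0.02 over all genes and probes. In this list 3 had a positive ratio that passed, 0 a negative one and 2 did not pass, with Got1 among the latter. Over all genes and probes 18.0% passed with a positive and 25.4% with a negative ratio. The malate dehydrogenases Mdh1 (cytosolic) and Mdh2 (mitochondrial) had ratios of 0.47 ± 0.13 (limma adjusted p = 1.22e-05) and 0.20 ± 0.11 (0.00168). Slc25a13 (citrin), the mitochondrial aspartate-glutamate carrier, had 0.28 ± 0.19 (0.00196), and the glutamate carrier Slc25a22 had -0.04 ± 0.08 and did not pass.

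Between the series, 2 of these 5 genes passed with SY lower, Got1 and Slc25a13, and 0 with SY higher. The shares over all genes and probes were 4.41% with SY lower and 1.29% with SY higher. Slc25a13 averaged 0.13 in SY and 0.43 in TP mice, a difference of -0.29 (limma adjusted p = 0.0446), against -0.80 for Cps1 and -0.87 for Got1. That call was lost without SY521RL, SY524ROB+L, SY522ROB, TP4215, TP4205 or TP4163, each left out alone (adjusted p from 0.0505 to 0.140). Mdh1 and Mdh2 differed by -0.11 and -0.03 between the series and did not pass. Their signs turned with array code as a term, where they did not pass either. Without SY518Z, 3 of the 5 genes had SY lower, but then 15.3% of all genes and probes were called.

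A further list took in enzymes and carriers of ammonia, glutamine and related amino acids. In the ammonia and glutamine list 3 of 5 measured genes had positive ratios that passed and 0 negative (median 0.19): the glutamate carrier Slc1a2 at 0.58 ± 0.23, alanine aminotransferase Gpt at 0.29 ± 0.14 and the glycine cleavage protein Gcsh at 0.19. Over all genes and probes 18.0% passed with a positive and 25.4% with a negative ratio. Of the 5 listed genes, 0 passed between SY and TP mice by limma, against 5.70% of all genes and probes. Without SY518Z 2 passed with SY lower, but then 15.3% of all genes and probes were called. Gpt, an aminotransferase like Got1, averaged 0.18 in SY and 0.39 in TP mice (adjusted p = 0.0785).

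Ornithine, the substrate of Otc, is also handled by ornithine aminotransferase, Oat, which had a ratio of 0.84 ± 0.25. Proline dehydrogenase, Prodh, had 0.52 ± 0.21 and spermine synthase, Sms, 0.34 ± 0.22. In that list of ornithine, arginine and proline genes 3 of 13 passed with a positive and 5 with a negative ratio, among them the antizyme Oaz1 (-0.27 ± 0.11), spermidine synthase Srm (-0.24 ± 0.11) and the arginine transporter Slc7a1 (-0.11). Over all genes and probes 18.0% passed with a positive and 25.4% with a negative ratio. Between SY and TP mice 0 of 13 passed by limma, against 5.70% of all genes and probes. Without SY518Z 2 of 13 passed, but then 15.3% of all genes and probes were called. Oat averaged 0.79 in SY and 0.89 in TP mice, and the series overlapped.

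Of 19 measured genes of amino acid catabolism, whose nitrogen reaches urea, 11 passed with a positive and 4 with a negative ratio (median 0.21). Among all genes and probes 18.0% passed with a positive and 25.4% with a negative ratio. Hpd, an enzyme of tyrosine breakdown, had 0.73 ± 0.22, and D-amino acid oxidase, Dao, had -1.29 ± 0.12. Between SY and TP mice 1 of 19 passed in each direction, against 4.41% of all with SY lower and 1.29% with SY higher. Without SY518Z 4 passed with SY lower and 1 with SY higher, but then 15.3% of all genes and probes were called. Aass, of lysine breakdown, was lower in SY mice by -0.25 (limma adjusted p = 0.0355), and Hal, the histidine ammonia-lyase, was higher in SY mice by 0.47 (0.0178), the direction opposite to Cps1. Leaving out any 1 mouse other than SY518Z or TP4163 ended the Aass call, and leaving out SY524ROB+L, SY522ROB or TP4205 ended the Hal call. With array code as a term the Hal difference turned to -0.34 and did not pass, in a fit where only SY518Z separates array code from identifier series.

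**Figure D3:**
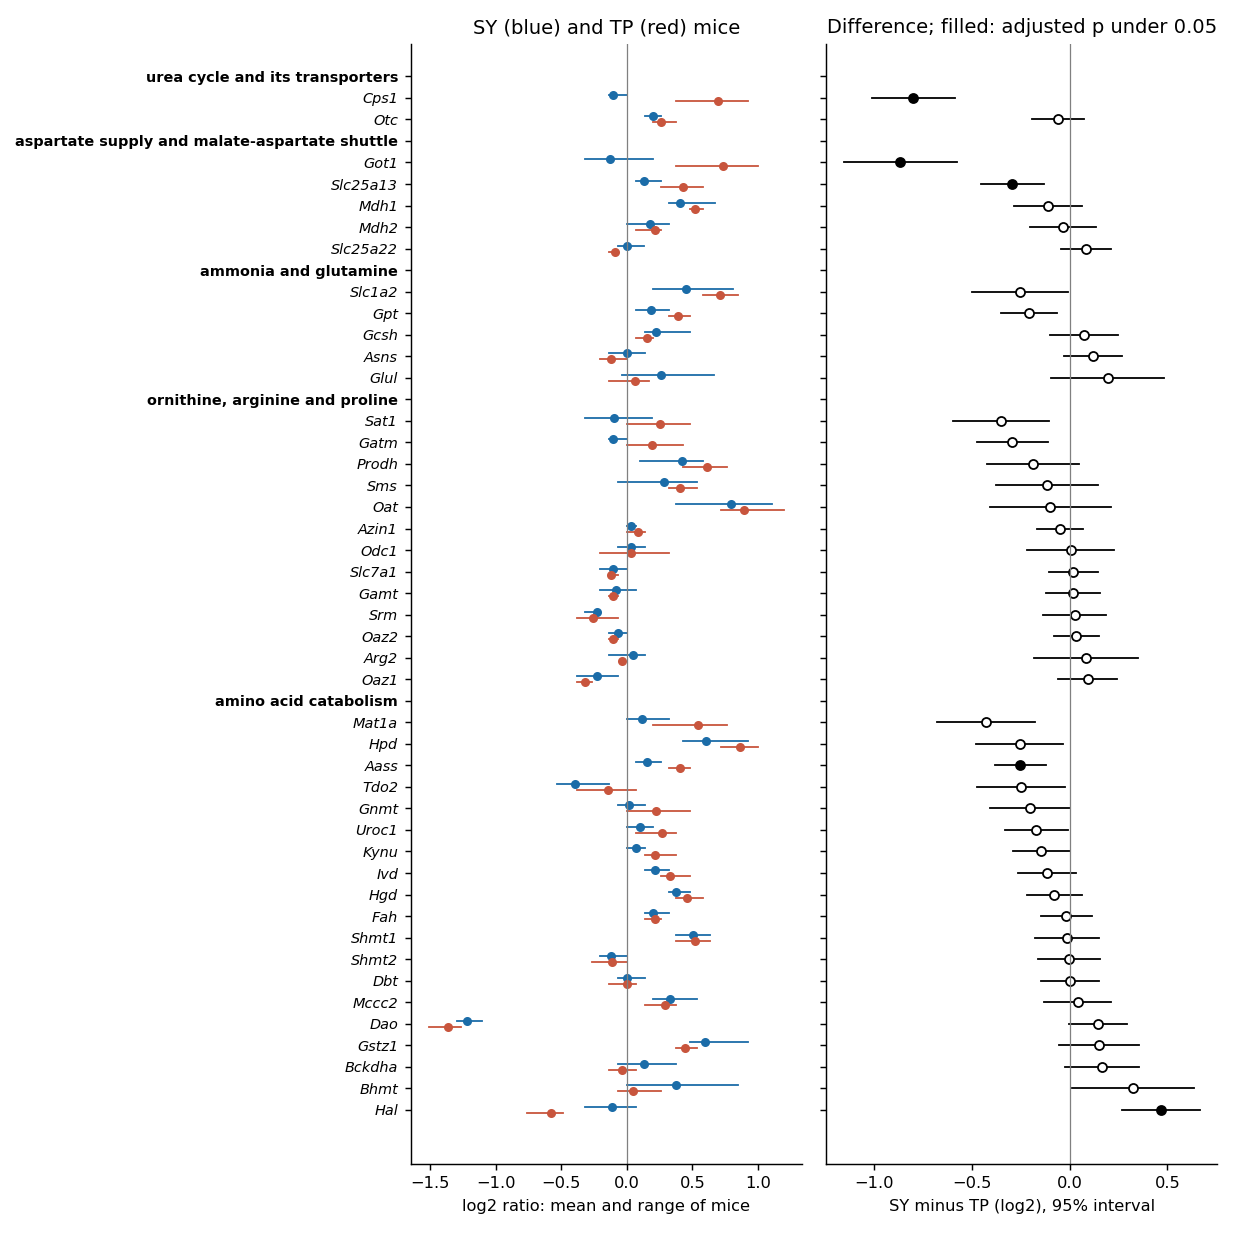
For each measured gene of 5 pathway lists, the mean log2 ratio as deposited with the range over mice in SY (blue) and TP (red) mice (left), and the SY minus TP difference with its 95% interval, filled where the limma adjusted p was under 0.05 (right). Cps1 and Got1 lie near 0 in SY mice (-0.10 and -0.13) and at 0.70 and 0.74 in TP mice, while Otc lies at 0.20 and 0.26.

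Transcription factors listed for the urea cycle genes included the coactivator Ppargc1a at 0.20 ± 0.05 and the glucocorticoid receptor Nr3c1 at 0.19 ± 0.06, both of which passed. In all, 5 of 9 measured passed with a positive and 1 with a negative ratio, against 18.0% and 25.4% of all genes and probes. Foxa1 was lower in SY mice by -0.28 (limma adjusted p = 0.0428) and Nfyb, a subunit of NF-Y, was higher by 0.23 (0.0497). Leaving out any 1 mouse other than SY518Z ended the Nfyb call, and any other than SY518Z or TP4163 the Foxa1 call.

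Cps1 is itself a periportal marker, and of 7 measured periportal genes it alone passed with SY lower over all 8 mice, while Hal passed with SY higher. Pck1, the gluconeogenic enzyme, had an SY mean of 0.19 and a TP mean of 0.76, a difference that did not pass (limma adjusted p = 0.0553). Igfbp2 averaged 0.47 and 0.45, Cyp2f2 -0.46 and -0.74, Hsd17b13 -0.19 and -0.25, and Aldh1b1 -0.15 and -0.26 in SY and TP mice. Of 10 pericentral and 8 general hepatocyte markers, 0 passed between the series by limma. The shares of all genes and probes that passed were 4.41% with SY lower and 1.29% with SY higher. Without SY518Z, 2 periportal genes passed with SY lower and 1 with SY higher, and 2 pericentral and 1 general hepatocyte marker passed with SY lower. In that setting 15.3% of all genes and probes were called. Over all 8 mice, only 3 of the 8 general hepatocyte markers had the lower mean in the SY series. The median SY minus TP difference of these 8 markers was 0.03. Albumin, Alb, was among the 3, at -0.06 for SY against 0.33 for TP, and did not pass (limma adjusted p = 0.0933).

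Markers of other liver cells were read for the same contrast, which 4.41% of all genes and probes passed with SY lower and 1.29% with SY higher. Among 8 measured Kupffer cell and macrophage genes 1 passed with SY lower, Adgre1, by -0.31 (limma adjusted p = 0.0483), and Marco differed by -0.67 (0.0512). The list's median was -0.35 in SY and -0.09 in TP mice. Among 5 bile duct genes 1 passed with SY higher, Cldn4, by 0.60 (0.0451). The Adgre1 and Cldn4 calls were not followed gene by gene with single mice left out. None passed by limma among 4 endothelial, 8 stellate cell, 4 lymphocyte and 3 erythroid genes. Without SY518Z, 2 Kupffer cell and macrophage genes passed with SY lower, and 1 lymphocyte gene and 1 bile duct gene with SY higher. In that setting 15.3% of all genes and probes were called. The part of these markers in the Cps1 and Got1 values was not tested. The small intestine also expresses Cps1 and Otc; of its other markers only Fabp2 was measured, at 0.48 in SY and 0.46 in TP mice. Ratios hold no level, so the labelled tissue could not be checked from marker levels.

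The named genes whose pattern over the 8 mice was most like that of Cps1 were Fmo5, Ppp3cc, Tbc1d8, Mvp and Got1. Likeness was the root mean square difference of the mouse values, each gene less its own mean, over 6180 other named genes with a value in all 8 mice. It was 0.15 for Fmo5, 0.17 for each of Ppp3cc, Tbc1d8 and Mvp, and 0.18 for Got1, against 0.43 for a flat pattern. For Got1 the nearest gene was Cps1, at 0.18, followed by Fmo5 (0.23), Trp53inp1 (0.25), Mvp (0.26) and Ppp3cc (0.27), against 0.48 for a flat pattern. The SY and TP means were 0.07 and 0.63 in Fmo5, a flavin monooxygenase, and -0.06 and 0.52 in Ppp3cc, a calcineurin catalytic subunit. They were -0.59 and -0.02 in the major vault protein Mvp, -0.18 and 0.31 in Tbc1d8, and -0.05 and 0.51 in Trp53inp1. The level around which the step occurred thus differed between these genes, with Mvp negative in SY mice and near 0 in TP mice.

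**Figure D4:**
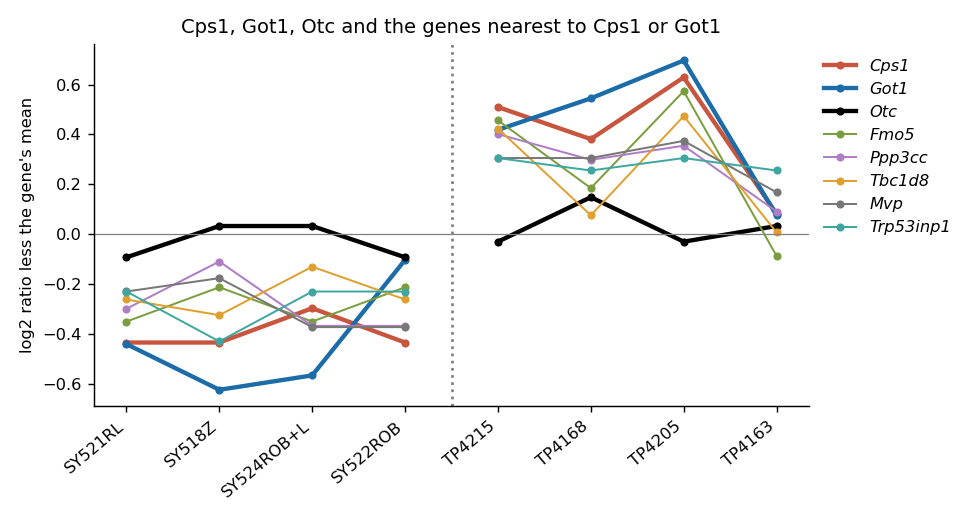
Log2 ratio less the gene's own mean (vertical axis) in each of the 8 mice for Cps1, Got1, Otc (thick lines) and the genes with the lowest root mean square difference from Cps1 or Got1 (thin lines); lines join values of a gene and imply no order of mice. The genes in thin lines were chosen for likeness to Cps1 or Got1, so their lower SY mean follows from that choice. Otc, not so chosen, has a difference of -0.06. The nearest gene to Cps1, Fmo5, differs from it by 0.15.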

How the data were processed

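Poly(A) RNA of 8 treated livers was hybridised on 16 two-colour cDNA arrays. The values the authors deposited are log2 ratios of Cy5 and Cy3, in an unstated direction; how they were background-treated and normalized is not given in sources used here. All 144660 fell on logarithms of ratios kept to 1 decimal (tolerance 0.01), and 31.8% were 0. Each array's median was 0, and the main tests applied no further scaling. The arrays differed by code, however. Probes with a value numbered 9249 to 9314 on c3z and 8094 to 9157 on bl7 arrays. The SD over an array's probes was 0.17 to 0.21 on c3z and 0.21 to 0.26 on bl7 arrays. With arrays scaled to equal SD, the SY minus TP difference was -0.74 for Cps1 and -0.79 for Got1, and both passed by limma. The precision is limited by the number of mice, each read on 2 arrays. Names came from the platform annotation of 2007 (7407 probes with 1 symbol, 437 with several, 1752 with none listed; 0 changed on updating through RefSeq GRCm38.p6 names). Probes of a gene were averaged, then the 2 arrays of a mouse. Of 8923 genes and unnamed probes, 575 were dropped for having values in fewer than 6 mice. Ratios were tested against 0, and SY against TP mice, with limma 3.58.1 in R 4.3.3 (lmFit, eBayes, two-sided, Benjamini-Hochberg over all 8348 tested, adjusted p under 0.05), tested on simulated data. Exact permutation tests were added for the members. Figures used matplotlib 3.10.9.

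The members and gene lists were chosen with earlier results of these data known. The rule for named genes took the members, all measured urea cycle and aspartate supply genes, up to 3 called genes farthest from 0 on each side for the diet ratio and 2 for SY minus TP in each other list, and the 5 genes most like Cps1 and Got1; Pck1's and other marker values, Gpt's difference and the orienting genes Cyp7a1 and Gstm1 were chosen after their values were seen. Alternatives covered left-out mice, single arrays, array code, scaling, probe and blank filters, variance moderation and the control spread.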

Additional observations from a re-analysis of the deposited data

Results flagged for a closer look

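Cps1 and Got1 were singled out because their diet ratios differed between SY and TP mice by limma's test of the difference itself, by -0.80 for Cps1 and by -0.87 for Got1 (adjusted p = 0.00413 and 0.00892). In Cps1 the highest SY mouse, SY524ROB+L, stood apart from the other 3 SY mice, at 0 against -0.14 in each of them; that gap is 1 step of the deposited ratio scale.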

How the results depend on the processing

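Otc kept its positive, called ratio in all 22 settings, from 0.21 to 0.24 when 1 mouse was left out. Cps1 and Got1 kept the called SY minus TP difference in 20 of 22 settings each, from -0.91 to -0.72 and from -0.99 to -0.78 when 1 mouse was left out. The exceptions were the first arrays alone (-0.79 and -0.91, limma adjusted p = 0.0695 and 0.0786) and the bl7 arrays alone (-0.83 and -1.12), where 1 SY mouse faces 4. On the bl7 arrays Otc was at 0.0025. The 22 settings include equal median scaling, which changed nothing. They also include single probes and blank filters, which cannot change the size for a gene with 1 probe and no blanks. The fit with array code, where only SY518Z separates code from series, is among the 20. Genes called between the series, 476 in all, ranged from 57 (without SY521RL or SY524ROB+L) to 1275 (without SY518Z) when 1 mouse was left out; they numbered 60 without SY522ROB, 180 without TP4215, 188 without TP4168 and 91 without TP4205. There were 0 by limma on first arrays (1467 at an unadjusted p under 0.05), 228 on second arrays, 157 with array code as a term, 940 with SY518Z by its c3z and 27 by its bl7 array, and 0 within bl7 (877 unadjusted). The cause was not tested.

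Against 0, Cps1 ranged from 0.21 to 0.36 and Got1 from 0.20 to 0.39 when 1 mouse was left out, and passed without SY521RL or SY522ROB (Cps1) and without SY518Z or SY524ROB+L (Got1). Both passed at 0.30 with arrays blocked by mouse and with the spread taken within series, and in TP mice alone at 0.70 and 0.74; in SY mice alone they were -0.10 and -0.13. Diet calls fell from 3622 to 1811 with control RNA taken as an equal pool of 7 mice as variable as the treated ones, and were 2159 in SY mice alone. Signs turned for the SY minus TP difference of Hal (-0.34 with array code, -0.0053 within bl7), Mdh1 (0.12 and 0.24) and Mdh2 (0.10 and 0.16; 0.018 after quantile normalization, 0.00085 at equal SD, and -0.083 to 0.026 with 1 mouse left out), and for the diet ratio of Sp1 (-0.042 by its farthest probe) and Trp53inp1 (-0.050 in SY mice alone). The equal-SD scaling and the bl7 arrays alone were chosen after seeing the data. Scaling to equal median absolute values changed nothing, because these were already equal. No paired analysis was possible because replicate numbers here only name the mice.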

Other observations

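Cps1 and Otc work in the mitochondrial matrix, and other enzymes of that compartment were listed beside them. Of 12 measured, 2 passed with a positive and 2 with a negative diet ratio, against 18.0% and 25.4% of all genes and probes. Positive were the isocitrate dehydrogenase subunits Idh3b (0.29 ± 0.12) and Idh3a (0.12). Negative were dihydrolipoamide dehydrogenase Dld (-0.62 ± 0.10) and oxoglutarate dehydrogenase Ogdh (-0.27 ± 0.09). Between the series 3 passed, all with SY higher, the direction opposite to Cps1: the protease subunit Clpx by 0.62 (limma adjusted p = 0.0328), citrate synthase Cs by 0.29 (0.0171) and the protease Lonp1 by 0.22 (0.0489), the last named after its value was seen. Over all genes and probes 1.29% passed with SY higher. The Clpx call was lost without SY521RL, SY524ROB+L, SY522ROB, TP4215 or TP4205, and the Cs call without SY521RL, SY522ROB or TP4205. The Lonp1 call was not checked in this way.

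In pyrimidine synthesis, which also uses carbamoyl phosphate, 1 of 3 measured genes passed against 0, CTP synthase Ctps at -0.17, against 43.4% of all genes and probes. Between the series 0 of the 3 passed by limma, against 5.70% of all genes and probes. Without SY518Z 1 passed with SY higher, but then 15.3% of all genes and probes were called. In gluconeogenesis 2 of 4 passed with a positive ratio, against 18.0% of all genes and probes. These were Pck1 at 0.47 ± 0.41 and G6pc at 0.30, the latter lost when any 1 mouse other than TP4215 or TP4205 was left out.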
